A study of Mus musculus with 8 samples.

Results

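Iron storage and transport genes of mouse microglia were followed here as a set of 9 genes out of 52636 gene identifiers in the count table. Fth1, Ftl1, Slc40a1, Tfrc, Slc11a1, Slc11a2, Ireb2, Ncoa4 and Steap3 were chosen by name for their known roles and found by their Ensembl identifiers through GENCODE vM21 symbols. The choice was made with earlier results of these data known. All 9 were found and all 9 passed the filter on low counts. The cells were primary microglia, the resident macrophages of the brain, from mice whose strain the labels give as C57BL/6 (the study's methods name C57BL/6N pups) and whose genotype they give as WT. They had been shaken off mixed glial cultures of neonatal brain, and cells of both groups were kept in DMEM with serum and recombinant CSF-1. Cultures received either vehicle or 5 µg/ml LPS, the bacterial lipopolysaccharide that activates macrophages, and RNA was taken after 24 h. Bulk RNA was sequenced from 4 libraries per group, and the comparison of the groups asks how LPS changed the RNA of these genes. Libraries held 20071921 to 30604447 counts.

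Cells take up iron bound to transferrin through the transferrin receptor (Tfrc), reduce it in the endosome with a ferrireductase (Steap3) and carry it into the cytosol through divalent metal transporters (Slc11a2). Surplus iron is stored in the ferritin shell, which is built of heavy (Fth1) and light (Ftl1) subunits, or leaves the cell through ferroportin (Slc40a1), the known iron exporter of mammalian cells. Iron regulatory proteins, among them the product of Ireb2, bind a hairpin called the iron-responsive element in some of these mRNAs and control their translation or decay. Macrophages recycle iron from engulfed cells and are known to withhold it from microbes during infection.

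The iron-responsive elements are shown because they are the regulatory sequences that several of these genes share, and they were not used to choose the genes. UTRs of the annotated transcripts were searched on the sense strand for a C, 5 bases of a stem, the loop CAGTGN and 5 bases that pair with the stem, G-T pairs allowed. This gave 7 matches in 4 members, and no match of these letters in the UTRs of the other 5. All 5 stem bases had to pair, so an element with a mismatch or an unpaired base there was not sought. A UTR without a match may thus still hold an element. For comparison, 0.146% of 21200 genes with a 5′ UTR and 0.679% of 21193 genes with a 3′ UTR held a match. Each match is printed 5′ to 3′ on the transcript strand with flanking bases, in GRCm38 coordinates, and the capitals mark the 6 bases of the loop.
Fth1, 5′ UTR, chr19:9982732-9982760, plus strand: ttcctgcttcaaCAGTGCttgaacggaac
Ftl1, 5′ UTR, chr7:45459779-45459807, minus strand: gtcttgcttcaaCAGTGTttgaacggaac
Slc40a1, 5′ UTR, chr1:45925465-45925493, minus strand: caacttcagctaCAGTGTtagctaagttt
Tfrc, 3′ UTR, chr16:32631219-32631247, plus strand: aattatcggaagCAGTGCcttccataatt
Tfrc, 3′ UTR, chr16:32631598-32631626, plus strand: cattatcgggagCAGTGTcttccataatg
Tfrc, 3′ UTR, chr16:32631663-32631691, plus strand: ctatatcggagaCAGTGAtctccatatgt
Tfrc, 3′ UTR, chr16:32631710-32631738, plus strand: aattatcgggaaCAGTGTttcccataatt
A match is a description of sequence and does not show that a protein bound it.

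After LPS, RNA of the heavy ferritin subunit Fth1 rose 9.03-fold, while that of ferroportin (Slc40a1) fell 10.7-fold. Both divalent metal transporters rose, Slc11a1 by 3.72-fold and Slc11a2 by 2.20-fold. Steap3, the endosomal ferrireductase, fell 9.43-fold and Ncoa4, the receptor that takes ferritin to the lysosome, fell 4.64-fold. No difference passed the test for the light ferritin subunit Ftl1, the transferrin receptor Tfrc or Ireb2, an iron-sensing RNA-binding protein. Thus 3 members were called higher, 3 lower and 3 neither way by edgeR's quasi-likelihood test at a Benjamini-Hochberg adjusted p under 0.05 over 13847 tested genes. Of all tested genes 64.1% were called, 30.3% higher and 33.8% lower, so the members were called at rates near the background in each direction. CPM (counts scaled to a common library size with TMM factors) did not overlap between the groups for 6 of 9 members, against 60.2% of all tested genes. The median log2 fold change was -0.14 over the members and -0.11 over all tested genes.

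The scaling of libraries sets the zero of these changes. TMM factors ran from 1.21 to 1.32 in vehicle libraries and from 0.701 to 0.833 in LPS libraries. Scaled by library total alone, the median of all tested genes moved from -0.11 to -0.79 and 19.0% of the calls were higher, in place of 47.2%. The called members kept their direction and call under that scaling, with log2 fold changes of 2.50 for Fth1, 1.23 for Slc11a1, 0.45 for Slc11a2, -4.12 for Slc40a1, -2.91 for Ncoa4 and -3.91 for Steap3. Ftl1, Tfrc and Ireb2 then became lower. Measured from the median of all tested genes, the log2 change of Tfrc was -0.03 with TMM factors and -0.01 without, that of Ireb2 0.17 and 0.16, and that of Ftl1 -0.23 and -0.21. In bulk RNA, fewer cells of a type and less RNA of a gene per cell cannot be told apart.

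**Figure D1:**
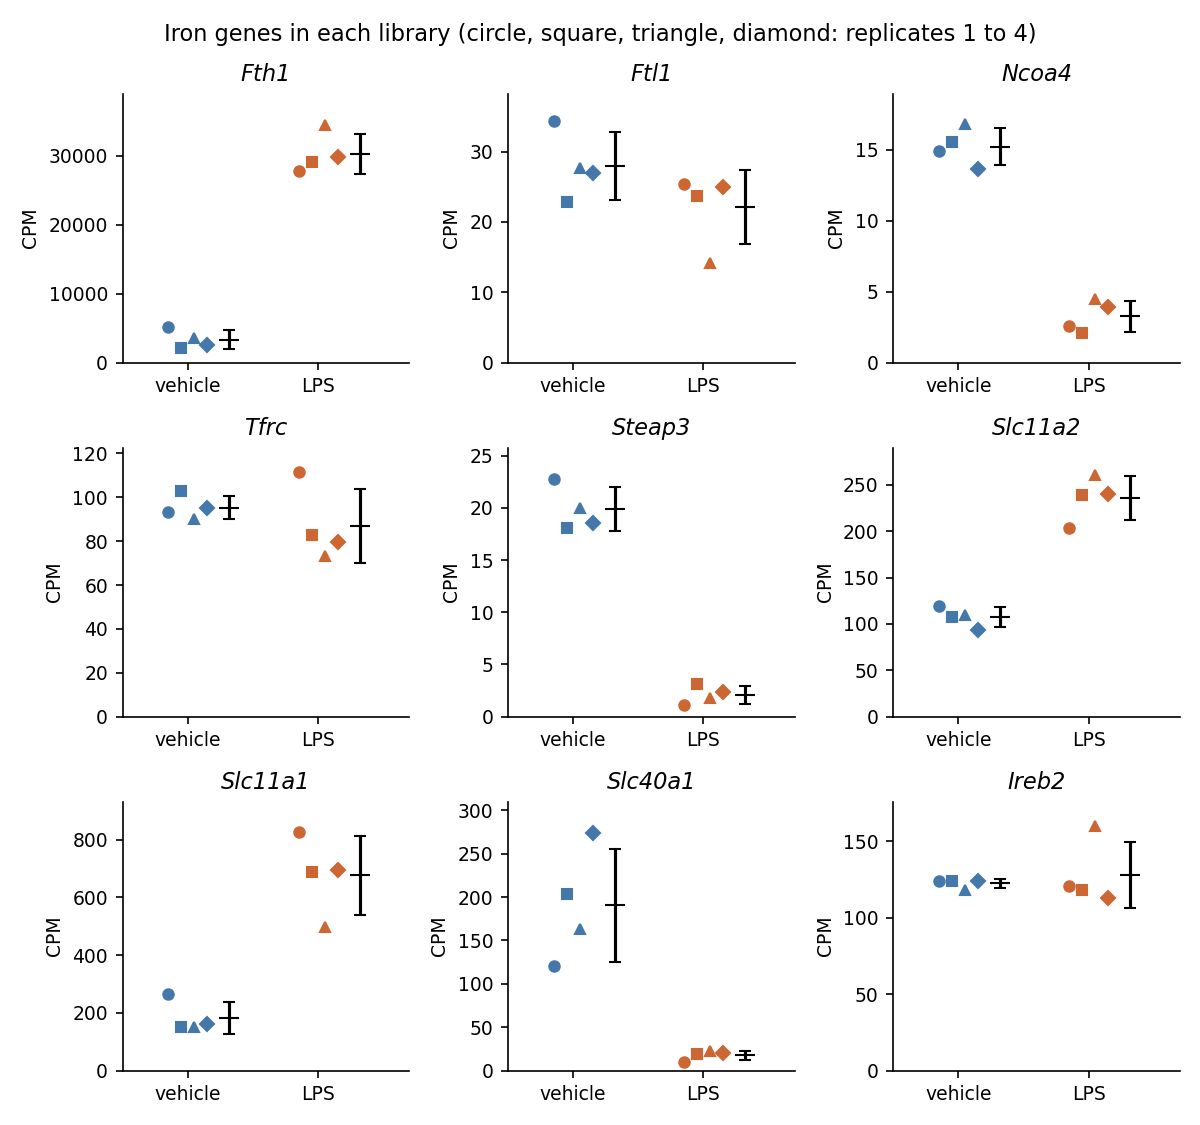
CPM of each of the 9 genes in each library (vertical axes, linear, from 0), with vehicle in blue, LPS in orange and the mean ± SD of 4 libraries in black. The LPS libraries lie above all vehicle libraries for Fth1, Slc11a1 and Slc11a2, and below them for Slc40a1, Steap3 and Ncoa4. The groups overlap for Ftl1, Tfrc and Ireb2.

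Fth1 (ENSMUSG00000024661, GRCm38 chr19:9980598-9985098, plus strand) encodes the heavy subunit of ferritin, which oxidises iron as it enters the shell. Its CPM was 5225, 2075, 3509 and 2608 in vehicle replicates 1 to 4 and 27806, 29054, 34505 and 29745 in LPS replicates 1 to 4. Every LPS library thus lay far above every vehicle library, and the vehicle libraries differed more among themselves in proportion than the LPS libraries did. The mean was 3354 ± 1380 CPM (SD, n = 4) with vehicle and 30277 ± 2930 CPM with LPS. The log2 fold change of Fth1 was 3.17 (SE 0.31, 95% interval 2.49 to 3.86, edgeR adjusted p = 1.68e-05). Of the 13847 tested genes, 523 had a log2 fold change at least as high. Fth1 took 0.265% to 0.655% of all counts with vehicle and 2.31% to 2.43% with LPS. By count it ranked 7, 25, 9 and 13 among the genes of vehicle replicates 1 to 4, and 3, 2, 1 and 2 in LPS replicates 1 to 4.

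Ftl1 (ENSMUSG00000050708, chr7:45457944-45459884, minus strand) encodes the light subunit, which helps the iron core to form. It measured 34.4, 22.8, 27.7 and 26.9 CPM in the vehicle libraries and 25.4, 23.7, 14.2 and 25.0 CPM in the LPS libraries. The groups overlapped, with LPS replicate 3 alone well under the rest. With means of 27.9 ± 4.82 and 22.1 ± 5.29 CPM (SD, n = 4), the log2 fold change of Ftl1 was -0.34 (SE 0.20, 95% interval -0.78 to 0.10, edgeR adjusted p = 0.155). The interval excludes a rise like that of Fth1 at the same scaling, but the Ftl1 count holds only part of the reads its transcript could give. Of the 50-base windows of its longest coding transcript, 833 of 919 (90.6%) also occur in transcripts of 17 other genes. Of these, Gm10252 and Gm22133 overlap Ftl1 itself, and a 50-base read from a window copied elsewhere aligns in more than 1 place and is not uniquely aligned.

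Ncoa4 (ENSMUSG00000056234, chr14:32159865-32179855, plus strand) encodes the receptor that delivers ferritin to autophagosomes so that its iron is released. Its CPM was 14.9, 15.5, 16.8 and 13.7 with vehicle and 2.57, 2.12, 4.48 and 3.89 with LPS. All LPS values were under the lowest vehicle value. Ncoa4 fell by 2.21 on the log2 scale (SE 0.23, 95% interval -2.73 to -1.70, edgeR adjusted p = 2.70e-05), from 15.2 ± 1.32 to 3.27 ± 1.10 CPM (SD, n = 4). The same caution on its level holds, since 94.5% of the windows in its coding part also occur in Gm6768, another annotated gene.

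Tfrc (ENSMUSG00000022797, chr16:32608920-32632794, plus strand), the receptor through which transferrin-bound iron enters cells, held 4 of the 7 matches to the iron-responsive element. It had 93.4, 103, 90.2 and 95.1 CPM in the vehicle libraries, and 112, 83.0, 73.2 and 79.7 CPM in the LPS libraries. LPS replicate 1 was the highest of all 8 libraries, and the other LPS libraries were lower than every vehicle library. The means were 95.4 ± 5.37 and 86.9 ± 16.96 CPM (SD, n = 4), and the log2 fold change of Tfrc was -0.14 (SE 0.13, 95% interval -0.44 to 0.17, edgeR adjusted p = 0.399). Without LPS replicate 1 it was -0.27 (edgeR adjusted p = 0.0317), so a single library decides whether Tfrc passes the test.

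Steap3 (ENSMUSG00000026389, chr1:120190757-120272705, minus strand) reduces ferric iron in the endosome after transferrin has released it. It measured 22.8, 18.1, 19.98 and 18.6 CPM with vehicle and 1.14, 3.16, 1.77 and 2.33 CPM with LPS. The highest LPS value stood well below the lowest vehicle value. The means were 19.9 ± 2.11 and 2.10 ± 0.858 CPM (SD, n = 4), and Steap3 fell by 3.24 on the log2 scale (SE 0.26, 95% interval -3.83 to -2.65, edgeR adjusted p = 5.86e-06). Of all tested genes, 497 had a log2 fold change at most as low.

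Slc11a2 (ENSMUSG00000023030, chr15:100387898-100425072, minus strand) encodes DMT1, which moves ferrous iron out of the endosome into the cytosol. Its CPM was 119, 108, 109 and 93.5 in vehicle libraries and 203, 239, 260.4 and 240.5 in LPS libraries. Both groups were tight and lay apart, with means of 107 ± 10.5 and 236 ± 23.8 CPM (SD, n = 4). The log2 fold change of Slc11a2 was 1.13 (SE 0.12, 95% interval 0.87 to 1.398, edgeR adjusted p = 2.62e-05).

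Slc11a1 (ENSMUSG00000026177, chr1:74375195-74386062, plus strand) encodes NRAMP1, the related transporter of phagosomes in macrophages, which draws metal away from engulfed microbes. It had 266, 151, 152 and 161 CPM with vehicle, and 828, 689, 497 and 694 CPM with LPS. Vehicle replicate 1 was the highest vehicle library here, as it was for Fth1, and it still lay under all LPS libraries. From means of 182 ± 55.7 and 677 ± 136 CPM (SD, n = 4), the log2 fold change of Slc11a1 was 1.89 (SE 0.23, 95% interval 1.38 to 2.41, edgeR adjusted p = 7.03e-05).

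Slc40a1 (ENSMUSG00000025993, chr1:45908068-45926523, minus strand), which encodes ferroportin, went the opposite way to Fth1, and both hold a match to the iron-responsive element in the 5′ UTR. Its CPM was 121, 203, 163 and 274 in the vehicle libraries and 10.1, 19.0, 22.2 and 19.8 in the LPS libraries. No LPS library came near the vehicle range. With means of 190.4 ± 65.0 and 17.8 ± 5.31 CPM (SD, n = 4), Slc40a1 fell by 3.42 on the log2 scale (SE 0.31, 95% interval -4.12 to -2.73, edgeR adjusted p = 1.14e-05). Of all tested genes 427 had a log2 fold change at most as low.

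Ireb2 (ENSMUSG00000032293, chr9:54863789-54912530, plus strand) encodes IRP2, an iron regulatory protein that binds iron-responsive elements when iron is scarce. It had 124, 124, 118 and 124 CPM with vehicle and 121, 118, 160.2 and 113 CPM with LPS. Vehicle libraries were the most even of any member, and LPS replicate 3 stood above the other 7. The means were 122 ± 3.13 and 128 ± 21.7 CPM (SD, n = 4), with a log2 fold change of 0.06 (SE 0.12, 95% interval -0.21 to 0.34, edgeR adjusted p = 0.662). Without LPS replicate 3 the log2 fold change of Ireb2 was -0.06 (edgeR adjusted p = 0.503).

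**Figure D2:**
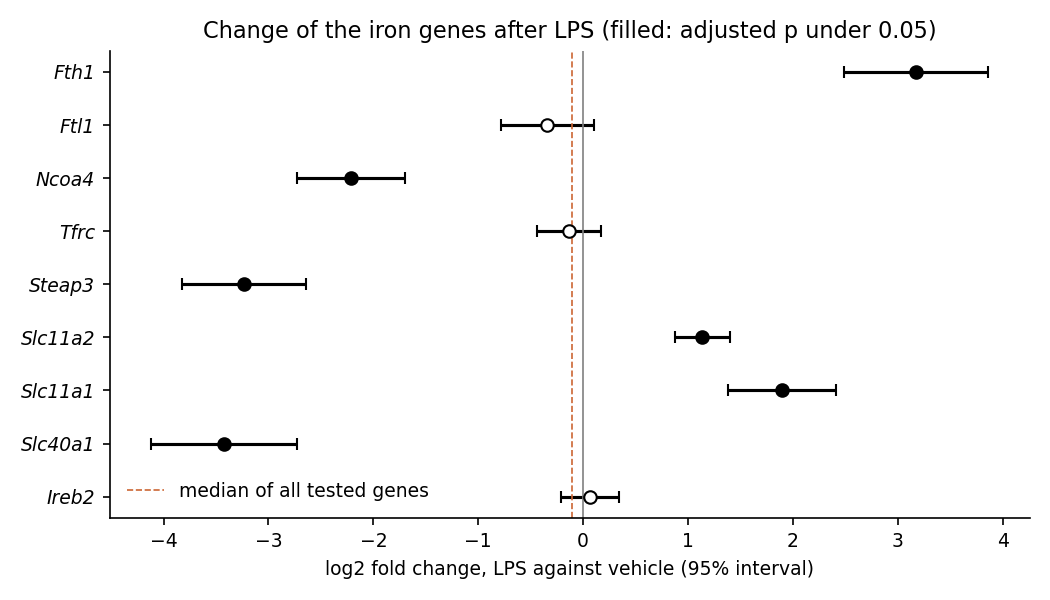
Log2 fold change of each member, LPS against vehicle (horizontal axis), with its 95% interval from the fit of edgeR on 4 libraries per group. Filled points passed the test at an adjusted p under 0.05, and the dashed line marks the median of all tested genes, -0.11. Fth1 (3.17) and Slc40a1 (-3.42) lie farthest out on their sides.

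Levels were compared between genes only per length, as CPM per kb of exonic sequence. In vehicle-treated microglia Fth1 was highest at 967 ± 398 CPM per kb (SD, n = 4), followed by Slc11a1 at 49.2 ± 15.05, Slc40a1 at 21.2 ± 7.22 and Ftl1 at 20.8 ± 3.598 CPM per kb. Slc11a2 (16.9 ± 1.65), Tfrc (15.4 ± 0.869) and Ireb2 (12.9 ± 0.330) came next, with Steap3 (3.47 ± 0.369) and Ncoa4 (1.63 ± 0.141) last. Between neighbours in this order, Slc40a1 and Ftl1, Ftl1 and Slc11a2, and Slc11a2 and Tfrc overlapped in their library values. The order depends in part on the length used. With the longest transcript (5770 bases for Ireb2, 4890 for Tfrc) in place of all exonic bases, Ireb2 stood above Tfrc.

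After LPS the order was Fth1 at 8728 ± 845 CPM per kb (SD, n = 4), Slc11a1 at 183 ± 36.8, Slc11a2 at 37.1 ± 3.74 and Ftl1 at 16.5 ± 3.94 CPM per kb. Tfrc (14.0 ± 2.74) and Ireb2 (13.5 ± 2.29) lay close behind, and Slc40a1 (1.97 ± 0.590), Steap3 (0.367 ± 0.150) and Ncoa4 (0.349 ± 0.118) were lowest. Ftl1 and Tfrc, Tfrc and Ireb2, and Steap3 and Ncoa4 overlapped as neighbours. Of the 36 pairs of members, 31 stood in the same order in both groups, and the exporter Slc40a1 moved from place 3 to place 7. With the longest transcript as the length, Ireb2 stood above Tfrc here too, and Ncoa4 (4733 bases) above Steap3 (5158 bases). The places of Ftl1 and Ncoa4 hold only for uniquely aligned counts, since 90.6% of the windows of Ftl1 and 94.5% of those in the coding part of Ncoa4 also occur in other annotated genes.

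Ratios of counts within a library need no scaling between libraries, and gene length cancels in their difference between groups. The log2 ratio of Ftl1 to Fth1, light against heavy ferritin subunit, was -7.25, -6.51, -6.99 and -6.60 in vehicle replicates 1 to 4. In LPS replicates 1 to 4 it was -10.10, -10.26, -11.24 and -10.22, so the groups did not overlap. Only uniquely aligned reads were counted, and 90.6% of the windows of Ftl1 also occur in other annotated genes, against 4.01% for Fth1. The level of this ratio is therefore not the balance of the subunits. The means, -6.83 ± 0.34 and -10.45 ± 0.53 (SD, n = 4), differed by -3.62 (two-sided exact permutation test over 70 divisions, p = 0.0286, the smallest it allows, 0.0381 after Benjamini-Hochberg adjustment over 4 ratios).

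The log2 ratio of Tfrc to Fth1, uptake against storage, was -5.81, -4.33, -5.28 and -4.78 with vehicle and -7.96, -8.45, -8.88 and -8.54 with LPS. The groups again stood apart, with a difference of -3.41 between means of -5.05 ± 0.64 and -8.46 ± 0.38 (exact permutation test, n = 4 per group, p = 0.0286, adjusted 0.0381). Both ratios to Fth1 hold its rise and are not independent results, and neither Ftl1 nor Tfrc was called on its own. The adjusted p of 0.0381 also depends on how many of the 4 ratios reach the smallest p. For Ireb2 to Aco1, the RNAs of both iron regulatory proteins, the log2 ratio was 0.74, 0.72, 0.88 and 0.74 with vehicle and 1.84, 1.53, 1.90 and 1.42 with LPS. It was higher by 0.90 after LPS, with means of 0.77 ± 0.07 and 1.67 ± 0.24 (exact permutation test, n = 4 per group, p = 0.0286, adjusted 0.0381). Aco1, which encodes IRP1, fell by 0.85 on the log2 scale (SE 0.11, edgeR adjusted p = 8.91e-05), from 71.9 ± 5.25 to 40.0 ± 4.21 CPM.

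The log2 ratio of Slc11a1 to Slc11a2, the paralogous metal transporters, was 1.16, 0.48, 0.47 and 0.78 with vehicle and 2.03, 1.53, 0.93 and 1.53 with LPS. The groups overlapped, with means of 0.724 ± 0.324 and 1.503 ± 0.447, and the difference of 0.78 did not pass (exact permutation test, n = 4 per group, p = 0.0571, adjusted 0.0571). When same-numbered libraries were treated as pairs, all 4 pairs moved in the same direction for each of the 4 ratios. Exact sign flips of 4 pairs cannot go below the p of 0.125 that each ratio then had, so none passes as a paired result.

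**Figure D3:**
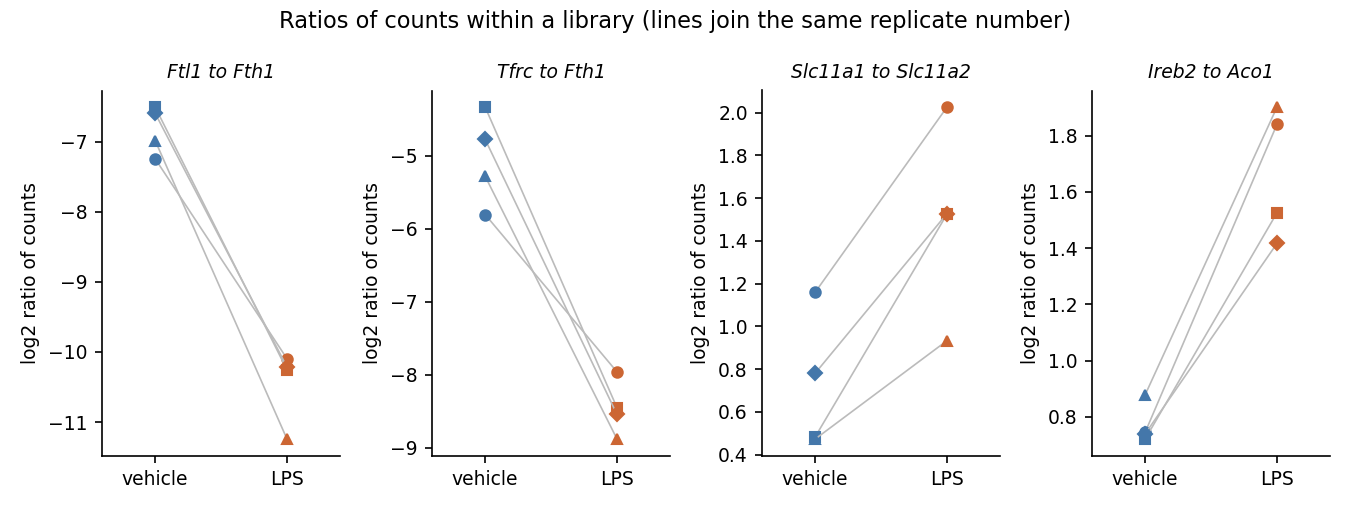
Log2 ratio of the counts of 2 genes within each library (vertical axes, each with its own range), for vehicle in blue and LPS in orange. Lines join libraries of the same replicate number, and all 4 lines run the same way in every panel, down for Ftl1 to Fth1 and Tfrc to Fth1 and up for Slc11a1 to Slc11a2 and Ireb2 to Aco1.

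Several members have near-identical copies elsewhere in the genome, and only uniquely aligned reads were counted. Gm6977 shared 58 of 1445 windows (4.01%) with the longest coding transcript of Fth1 and held 160481 counts over the 8 libraries. Its log2 fold change, 3.17 (SE 0.30, edgeR adjusted p = 1.38e-05), equals that of Fth1 to 2 decimals. Its CPM was 329, 123, 209 and 149.8 with vehicle and 1674, 1829, 1883 and 1883 with LPS, so these libraries kept the order they had for Fth1 in the vehicle group. Whether its reads came from Gm6977 or from Fth1 was not tested.

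Gm6768, which shared 1729 of 4016 windows (43.1%) with Ncoa4, had 5888 counts against 2041 for Ncoa4. It also fell by 2.30 on the log2 scale after LPS (SE 0.14, edgeR adjusted p = 1.21e-06). For Ftl1 the 17 genes with shared windows held 365 counts in all against 4898 for Ftl1, the most similar being Ftl1-ps1 with 675 shared windows and 140 counts. Adding the counts of such genes to the members left the log2 fold change of Fth1 at 3.17, that of Ftl1 at -0.31 (edgeR adjusted p = 0.189) and that of Ncoa4 at -2.28 (edgeR adjusted p = 1.81e-06). The sums hold uniquely aligned reads alone. They do not bring back reads from shared windows and so cannot check what those reads would have shown. Slc40a1, Tfrc and Steap3 shared no window with another annotated gene. Gm10252, on the opposite strand, covers 26.5% of the exonic bases of Ftl1, and reads of the pair cannot be told apart unless counting used the strand.

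**Figure D4:**
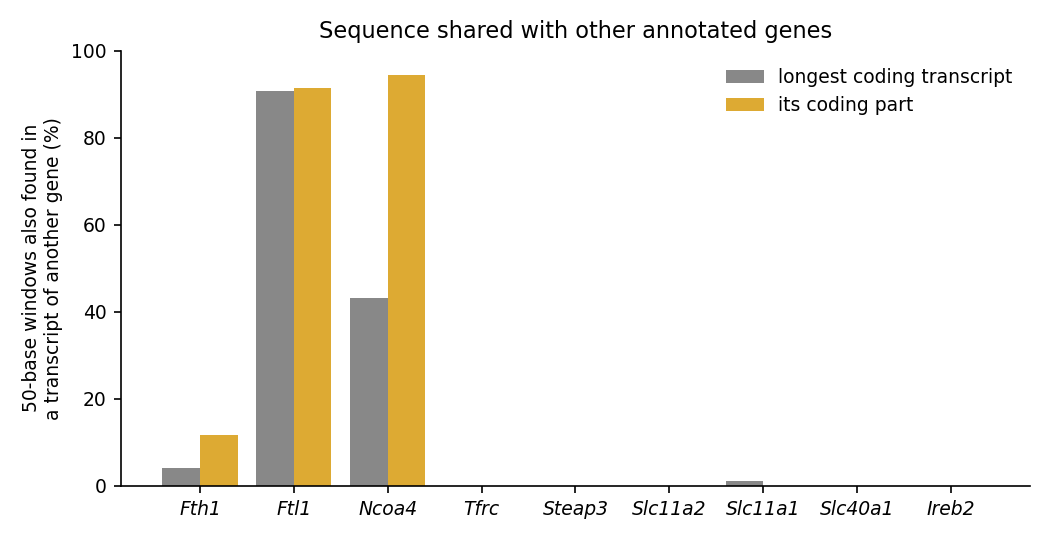
Share of the 50-base windows of each member, in percent, that also occur in a transcript of another annotated gene, for the longest coding transcript (grey) and its coding part (yellow). Ftl1 (90.6% and 91.5%) and Ncoa4 (43.1% and 94.5%) stand out, Fth1 reaches 4.01% and 11.6%, and 5 members are at 0 in both.

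Which genes followed each member most closely was measured as the root mean square distance between log2 CPM profiles over the 8 libraries, centred on each gene's mean, among the 8010 genes whose log2 CPM averaged 3 or more. Gm6977 was nearest to Fth1 (distance 0.0694), Card9 to Ftl1 (0.0885), Wwp1 to Slc40a1 (0.24) and Atrn to Tfrc (0.0514). Aldoa, a glycolytic enzyme, was nearest to Slc11a1 (0.0968), Fndc3b to Slc11a2 (0.0757) and Cfap97 to Ireb2 (0.0361). Nlrc3 was nearest to Ncoa4 (0.164), with Gm6768 in place 2 (0.229), and Pnpla7 to Steap3 (0.167). These distances are descriptions over 2 groups, and any gene with a like change comes close.

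Of 60 other genes of iron and heme handling, 49 were tested, of which 15 were called higher, 20 lower and 14 neither way. Their median log2 fold change was -0.23, against -0.11 for all tested genes. The background of 64.1% called (30.3% higher, 33.8% lower) holds for this count and for each list that follows, and with 1 to 15 tested genes a list's count is a description.

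Among 10 tested genes of iron uptake and release, 3 rose and 5 fell, with a median of -0.98. Lcn2, a siderophore-binding protein that keeps iron from bacteria, rose from 5.08 ± 5.01 to 6119 ± 771 CPM (log2 fold change 10.23, SE 0.73, edgeR adjusted p = 2.52e-06). Without vehicle replicate 1, which had 12.6 CPM, the log2 fold change of Lcn2 was 11.24. Ceruloplasmin (Cp), a ferroxidase, rose from 53.1 ± 26.4 to 677 ± 96.6 CPM, and Slc39a14, an importer of iron that is not bound to transferrin, from 44.3 ± 4.24 to 183 ± 22.4 CPM. Transferrin (Trf) fell from 117 ± 17.5 to 23.6 ± 5.53 CPM, and the folate and heme carrier Slc46a1 from 17.1 ± 1.81 to 2.62 ± 0.604 CPM. Lrp1, a receptor that can take up heme bound to hemopexin, fell from 2173 ± 410 to 646 ± 73.3 CPM.

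Of 5 tested genes of iron sensing, 2 rose and 3 fell, with a median of -0.85, where 64.1% of all tested genes were called. Fbxl5, the iron-sensing part of a ubiquitin ligase that marks IRP2 for degradation, rose from 61.8 ± 2.60 to 535 ± 70.2 CPM (log2 fold change 3.11, SE 0.13, edgeR adjusted p = 1.47e-07). Hif1a, a transcription factor of the response to low oxygen, rose from 177 ± 59.0 to 1190 ± 284 CPM. Its paralog Epas1 fell from 16.6 ± 2.45 to 1.53 ± 0.558 CPM. Hfe, a partner of the transferrin receptor, fell from 89.0 ± 16.6 to 12.5 ± 1.12 CPM.

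Of the 4 genes listed under iron reduction beside Steap3, only Steap4 passed the filter, and it rose from 0.121 ± 0.197 to 1.395 ± 0.728 CPM (log2 fold change 3.47, SE 0.85, edgeR adjusted p = 0.00523), on 1, 12, 0 and 1 counts in the vehicle libraries and 17 to 41 per LPS library. Without vehicle replicate 2 the log2 fold change of Steap4 was 5.67. Among iron chaperones and genes of ferritin turnover, Tax1bp1, an autophagy receptor with a known part in ferritin turnover, rose from 138 ± 4.41 to 473 ± 105 CPM, whereas the other 4 tested did not pass.

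Heme genes split evenly, with 5 higher, 5 lower and 5 neither way and a median of -0.11. Hmox1, which breaks heme down and frees its iron, measured 740, 387, 404 and 449 CPM with vehicle and 2954, 2710, 4114 and 2623 CPM with LPS. The groups lay apart, and the log2 fold change of Hmox1 was 2.65 (SE 0.26, edgeR adjusted p = 1.81e-05). Flvcr2 rose from 0.387 ± 0.526 to 20.6 ± 10.0 CPM (log2 fold change 5.72, and 7.23 without vehicle replicate 1), and Blvrb, which reduces biliverdin, from 75.4 ± 19.4 to 224 ± 66.9 CPM. The heme synthesis enzymes Cpox (log2 fold change -1.53) and Urod (-0.50) fell. Alas1, which encodes the first enzyme of heme synthesis and is named after its values were seen, rose from 89.7 ± 35.4 to 251 ± 53.0 CPM, while Alad (log2 fold change -0.52) and Uros (0.16) did not pass.

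Of 13 genes of mitochondrial iron and iron-sulfur clusters, 3 rose, 7 fell and 3 did not pass, with a median of -0.29. The mitochondrial iron importer Slc25a37 rose from 40.3 ± 12.6 to 98.6 ± 17.8 CPM. The cluster assembly genes Isca2 (log2 fold change 0.75) and Lyrm4 (0.61) were higher, though with library totals alone they were at 0.07 and -0.06 and did not pass. The cluster assembly genes Bola3 (log2 fold change -2.15) and Glrx5 (-1.18) fell.

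**Figure D5:**
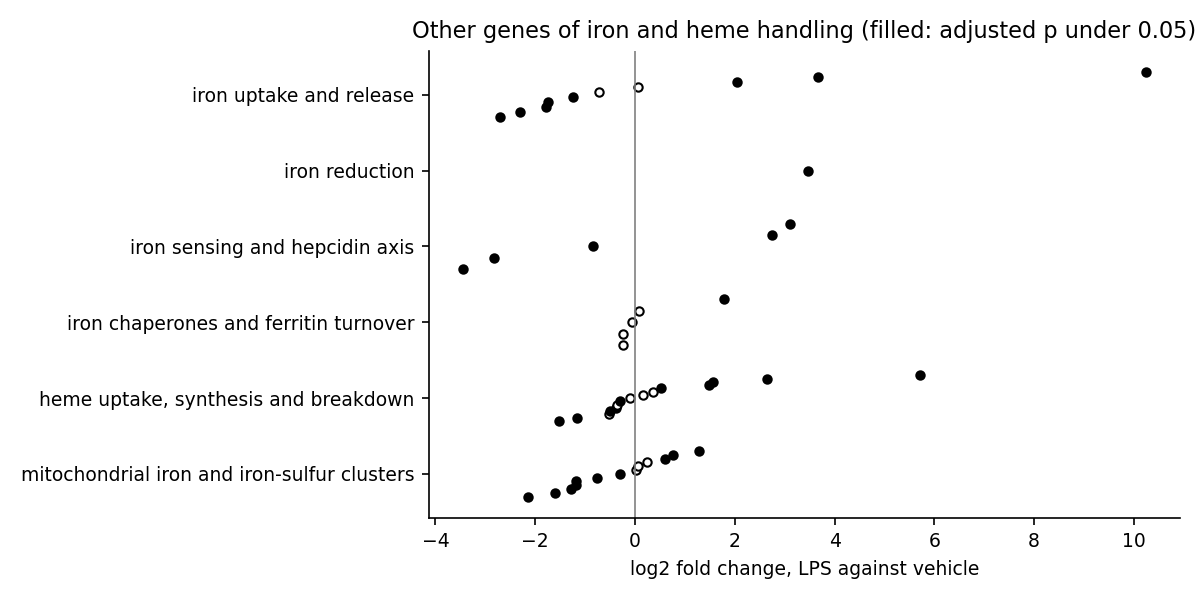
Log2 fold change, LPS against vehicle (horizontal axis), of the 49 tested genes of iron and heme handling, by list. Filled points passed the test at an adjusted p under 0.05, of which 15 lie right of 0 and 20 left of it. The point farthest to the right is Lcn2 at 10.23.

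The labelled cell type was checked against markers. All 10 microglial markers passed the filter, and their summed CPM ran from 6210 to 8155 in vehicle libraries and from 2339 to 2392 in LPS libraries, with 7 genes lower and 1, Itgam, higher. Markers of other cells were at far lower sums, and some moved with the groups. Summed CPM of 6 endothelial markers was 31.1 to 73.5 with vehicle and 163 to 254 with LPS (3 tested and all 3 higher), and no library held more than 3 counts of Cldn5, Tek or Esam. For 8 astrocyte markers it was 20.01 to 46.9 and 41.0 to 123 (1 higher, 3 lower of 7 tested), and for 8 of oligodendrocyte precursors 23.9 to 104 and 54.3 to 125 (1 higher, 3 lower of 6 tested). For 6 oligodendrocyte markers it was 79.6 to 114 and 18.6 to 23.2 (1 lower of 3 tested, Mobp at 0), for 6 fibroblast markers 0.497 to 4.31 and 5.30 to 21.4 (1 higher of 2 tested), and for 6 neuronal markers 2.66 to 8.52 and 2.10 to 6.46 (2 lower of 4 tested). The part of these shifts in the iron genes was not tested.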

How the data were processed

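RNA of 8 libraries (4 vehicle, 4 LPS) was counted. The authors deposited raw counts per Ensembl gene, made with HTSeqGenie from single-end reads aligned by GSNAP to GRCm38, keeping uniquely aligned reads. The annotation release and use of strand are not given in the sources used here, and the labels and the study's methods name different kits and sequencers. Of 52636 identifiers 52489 had a GENCODE vM21 symbol, and positions and transcripts are from that release. The genome sequence itself was not used here, so the search for copies covered annotated transcripts alone.

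Groups were compared with edgeR 4.0.16 in R 4.3.3 (TMM, filterByExpr at 10 counts and 15 in total, quasi-likelihood test, two-sided, Benjamini-Hochberg over 13847 genes, threshold 0.05). The study's methods test no single genes. A standard error is the absolute log2 fold change over the root of F. Ratios used a pseudocount of 0.5. In data simulated for this comparison edgeR recovered 95.5% of 200 changed genes with 11 false calls. The simulation changed only those genes, in both directions, with the same dispersion for every gene. It therefore does not test the fit under the wide change and the difference in scaling between these groups. Tables and figures used Python 3.11.15, numpy 2.4.6, pandas 2.3.3, scipy 1.17.1 and matplotlib 3.10.9.

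The members, pathway lists and markers were chosen with earlier results of these data known. Genes named are all members, up to 3 per list and direction with the smallest adjusted p, the nearest gene of each member, Aco1, and ferritin copies. Some genes that this rule names count in the lists but are not reported singly here. The copies Gm6768 and Gm10252 and the low or unequal markers were named after their values were seen. Alternatives were DESeq2 1.42.0, other count filters, upper quartile, relative log expression or no scaling, a replicate block, an adjusted p of 0.01, a pseudocount of 5, each library left out, and, chosen after seeing the data, copies summed. Levels per length were also ordered with upper quartile scaling and with the longest transcript as the length.

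Same-numbered vehicle and LPS libraries deviated together from their group means over 8010 genes (r of 0.373, 0.196, 0.171 and 0.108 for replicates 1 to 4), all above the 0.1 taken as the limit for pairing. For replicates 2 and 4 the exchanged pairs gave 0.137 and 0.146, so their pairing is a hint from the data. The labels call the libraries biological replicates without naming cultures or animals, so p-values measure the spread between these samples. They name no batch, and a batch that follows the groups cannot be told apart from treatment. No 2 libraries were duplicates (chi-square per degree of freedom of at least 6.45 within a group). Replicates 2 and 4 were the closest pair in both groups, at 10.1 with vehicle and 6.45 with LPS. The other pairs gave 32.8 to 60.8 with vehicle and 54.9 to 140 with LPS. Whether replicates 2 and 4 are as independent of each other as the rest was not tested. The SD over 4 libraries holds both counting error and the spread between libraries, but no error that all libraries of a group share.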

Additional observations from a re-analysis of the deposited data

Results flagged for a closer look

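A library stood apart from the other 3 of its group, by Dixon's test at 95%, in 15 of 80 groups of values looked at, where chance gives about 1 in 20, that is 4. Of these values 4 came from vehicle replicate 1, 4 from LPS replicate 3, 3 from vehicle replicate 3, 2 from LPS replicate 1 and 1 each from vehicle replicate 2 and LPS replicate 4.

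Vehicle replicate 1 was the highest vehicle library for Slc11a1 (266 CPM), the iron-withholding protein Lcn2 (12.6 CPM), Hif1a (265 CPM) and Tax1bp1 (145 CPM). It was also the highest vehicle library for Fth1 (5225 CPM) and the lowest for Slc40a1 (121 CPM), both within the limits of the test. Without it the log2 fold change was 3.50 for Fth1, 2.17 for Slc11a1 and -3.55 for Slc40a1, all past the threshold (edgeR adjusted p = 1.29e-05, 3.99e-05 and 1.17e-05).

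LPS replicate 3 was the lowest LPS library for Ftl1 (14.2 CPM), for the log2 ratio of Ftl1 to Fth1 (-11.24) and for Epas1 (0.700 CPM), and the highest for Tax1bp1 (629.6 CPM). It also has the most counts, 30604447, and the lowest TMM factor, 0.701.

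Vehicle replicate 3 was the lowest vehicle library for Ireb2 (118 CPM) and Aco1 (64.1 CPM) and the highest for their log2 ratio (0.88). LPS replicate 1 was the highest LPS library for Hif1a (1613 CPM) and Slc25a37 (125 CPM). Vehicle replicate 2 was the highest vehicle library for Steap4 (0.415 CPM), and LPS replicate 4 the highest LPS library for Glrx5 (12.4 CPM).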

How the results depend on the processing

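Calls of Fth1, Slc11a1, Slc11a2, Slc40a1, Ncoa4 and Steap3 stayed on their side of the threshold, in the same direction, under every alternative run. Scaling by library total alone gave 1988 genes higher and 8457 lower, with 6 members and 31 pathway genes lower. Ftl1 was then at -0.996 (edgeR adjusted p = 0.00335), Tfrc at -0.80 (0.00172), Ireb2 at -0.63 (0.000238) and Lyrm4 at -0.062 (0.757). With upper quartile scaling Ireb2 was at -0.10 (edgeR adjusted p = 0.426). With each library left out in turn, Tfrc ranged from -0.27 to -0.055 (edgeR adjusted p from 0.0317 to 0.756) and Ireb2 from -0.056 to 0.13. The replicate block (same-numbered libraries as pairs) left the ratio differences at -3.62, -3.41 and 0.90 for Ftl1 to Fth1, Tfrc to Fth1 and Ireb2 to Aco1, each at an exact p of 0.125. It changed no other call of a named gene, and gave 4110 genes higher and 4934 lower. Over all results with a test or count 306 alternatives kept the direction and call, or stayed within 1.5 times a count, while 4 moved, 3 reversed, 3 came to pass and 3 no longer passed. For other named genes 396 kept theirs, 1 reversed and 1 no longer passed. Counts of Steap3 and Ncoa4 in LPS libraries are low, and reads of near-identical copies limit Ftl1 and Ncoa4.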

Other observations

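Hamp encodes the iron hormone hepcidin, which leads to the degradation of ferroportin. It had 0 counts in every vehicle library and 1, 2, 11 and 1 counts in LPS replicates 1 to 4. It did not pass the filter on low counts. Without the filter the adjusted p of Hamp was 0.0115 with edgeR, and with DESeq2 it was 0.00915, on counts of which 11 came from LPS replicate 3. Hamp2, Tfr2, Tmprss6 and the mitochondrial ferritin Ftmt had 0 counts in all 8 libraries. Taken alone, 0 counts in 1 library allow an expected count of up to about 3, and 0 in all 8 allow less per library. Cd163, the receptor for hemoglobin bound to haptoglobin, had 18, 11, 22 and 7 counts in the vehicle libraries and 2, 0, 0 and 5 in the LPS libraries (without the filter, adjusted p = 0.0323 with edgeR and 0.0288 with DESeq2). Steap2 had 6 to 14 counts with vehicle and 0 to 3 with LPS (adjusted p = 0.0459 with edgeR without the filter and 0.051 with DESeq2). The other low genes, Ltf, Steap1, Cybrd1 and Bmp6, had at most 11 counts in a library and passed in neither fit, DESeq2 giving no adjusted p for Ltf. These 11 genes are outside the counts of called genes.

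Of 14 other genes with a symbol starting Fth or Ftl, 9 had no count and 5 had at least 1. The processed pseudogene Fth-ps3 had 26, 11, 14 and 8 counts with vehicle and 60, 101, 140 and 83 with LPS, and Fth-ps2 had 0 to 4 and 4 to 14. Counts of Fth-ps3 thus did not overlap between the groups and were higher with LPS, in the direction of Fth1. Ftl1-ps1 had 20 to 23 counts with vehicle and 7 to 21 with LPS, Ftl1-ps2 had 13 counts in all and Ftl2-ps 1. How many of these reads belong to the parent genes was not tested.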
